A study of Mus musculus with 78 samples.

Results

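A set of 8 genes of the choroid plexus epithelium, led by Ttr, were followed across a striatal expression series: Ttr, Kl, Folr1, Enpp2, Kcnj13, Clic6, Sostdc1 and Aqp1. All features that the platform annotation names for these 8 genes were taken, which gave 10 of the 45281 probes on the array and covered 6 of the 8 genes. Enpp2 and Kcnj13 had no named probe and were not analysed here. The choroid plexus is the frond of tissue in the brain ventricles whose epithelium secretes cerebrospinal fluid. It lies against the striatum across the wall of the lateral ventricle and is no part of it. Ttr encodes transthyretin, the thyroid hormone and retinol carrier that this epithelium makes in very large amounts, so a small piece of it is easily seen in brain RNA.

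Total RNA came from the striatum of C57BL/6J mice, and each of 78 samples was hybridised to 1 Illumina array. Mice were injected into the peritoneum 2 times a day for 12 days with saline, with heroin rising from 10 to 40 mg/kg, or with methamphetamine rising from 2 to 8 mg/kg. For each agent 3 arrays cover each of the treatment days 1, 3, 6 and 12, and 3 more each of the withdrawal days, which the labels call 13, 15, 18 and 24. Treatment days 1, 3 and 6 fall before the end of the injection schedule. Means over the treatment days therefore mix durations and, for the drugs, doses. A further 6 arrays come from naive mice. The labels give no age and do not say whether replicates are separate animals, so p-values measure the spread between these samples. The file headers number the withdrawal days 1, 3, 6 and 12, so columns were matched to the labelled days 13, 15, 18 and 24 by inferring the interval.

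The libraries of methamphetamine day 1 went against their striatal label. The medium spiny neuron list, whose 7 measured genes (7 of 9 listed, among them Drd1, Drd2, Ppp1r1b and Penk) define the striatum, lay at -1.09, -0.67 and -3.69 log2 units from its median over all arrays on replicates 1, 2 and 3, as the mean over its genes. On these arrays a hippocampal list (7 of 8 genes measured, among them C1ql2, Prox1, Spink8 and Wfs1) lay 1.57, 1.27 and 1.89 above its median, against a range of -0.24 to 0.29 on the other 75 arrays. Saline day 15 replicate 2 also had low striatal markers, at -0.83, and the remaining 74 arrays lay between -0.34 and 0.29. The range of correlations among the members and the treatment means of the drugs are given with and without methamphetamine day 1. Correlations with other genes and with marker lists are given over all arrays only. The count of members on day 15 is given with and without saline replicate 2. The methamphetamine comparison of day 1 rests on these arrays alone.

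Of the genes with a probe, Kl encodes klotho, a membrane protein that acts with fibroblast growth factor receptors. Folr1 encodes the folate receptor alpha, through which folate enters the cerebrospinal fluid. Aqp1 encodes the water channel of the epithelium's ventricular face, and Clic6 a member of the intracellular chloride channel family. Sostdc1 encodes a secreted antagonist of bone morphogenetic protein and Wnt signalling. In GRCm38.p6, Kl lies at chr5:150952607-150993817, Folr1 at chr7:101858331-101870788, Clic6 at chr16:92498147-92541241, Sostdc1 at chr12:36314169-36318452 and Aqp1 at chr6:55336299-55348555. The 6 measured genes sit on 6 chromosomes.

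Promoters of Kl and Aqp1, the measured members with an entry in the RefSeq promoter table (GRCm38.p6), are shown because these genes moved together across arrays. They are set beside 1 of the 4 starts of Otx2, a homeobox gene of this epithelium that was the gene most like Clic6. Each runs 5′ to 3′ from 250 bases before to 50 bases after the start, and capitals mark the letters TAATCC or their reverse complement GGATTA, the core recognised by OTX-type homeodomains.
Kl, chr5:150952357-150952656, plus strand: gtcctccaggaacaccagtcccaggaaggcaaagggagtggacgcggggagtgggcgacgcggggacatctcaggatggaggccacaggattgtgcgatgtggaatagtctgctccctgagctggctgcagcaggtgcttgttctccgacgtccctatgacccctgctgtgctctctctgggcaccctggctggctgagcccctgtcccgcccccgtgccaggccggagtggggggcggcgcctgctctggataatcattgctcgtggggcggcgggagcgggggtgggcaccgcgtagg
Aqp1, chr6:55336049-55336348, plus strand: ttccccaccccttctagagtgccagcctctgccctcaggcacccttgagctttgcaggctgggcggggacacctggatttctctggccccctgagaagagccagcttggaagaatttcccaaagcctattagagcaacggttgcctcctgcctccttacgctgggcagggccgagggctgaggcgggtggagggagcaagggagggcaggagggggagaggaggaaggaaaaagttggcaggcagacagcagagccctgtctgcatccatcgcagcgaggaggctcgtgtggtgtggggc
Otx2, chr14:48665060-48665359, minus strand: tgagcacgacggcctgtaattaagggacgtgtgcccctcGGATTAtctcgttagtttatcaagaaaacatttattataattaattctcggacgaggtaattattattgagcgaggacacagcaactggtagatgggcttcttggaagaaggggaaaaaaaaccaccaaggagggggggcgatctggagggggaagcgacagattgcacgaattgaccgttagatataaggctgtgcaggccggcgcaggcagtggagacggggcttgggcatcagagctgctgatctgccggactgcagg
Neither member promoter held the letters on either strand, and the printed Otx2 window held 1 match, starting at base 40. It was chosen for this match, and the windows of the other 3 Otx2 starts held none. A second list of choroid plexus genes had 40 promoters in the table, of which 5 (12.5%) held the letters, against 7.06% of all 32851 promoters of that length. These are descriptions of letters in a window.

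Ttr, at chr18:20664209-20674326 in GRCm38.p6, had the widest spread between replicates of all 45281 probes. Its log2 signal, after quantile normalization, ran from 8.40 to 15.73 with a median of 11.39, a 161-fold range, while the median probe of an array stood at 6.95. As deposited, before normalization, its signals ran from 241 to 61947. On 2 arrays Ttr stood above 90% of the brightest probe of the array, so its highest values lie near the top of the scale, and a ceiling there was not tested. The standard deviation within groups was 2.17 log2 units, against 0.123 for the median probe and 1.12 for the next widest, Pmch, a hypothalamic neuropeptide gene. Ttr ranked 10 by brightness on its highest arrays and 11398 on its lowest, and it was among the 25 brightest probes on 6 arrays and the 100 brightest on 14. With arrays sorted by Ttr, the largest step between neighbours was 0.64, from 8.84 to 9.49. Ttr was above 10 on 63 arrays, above 12 on 28 and above 14 on 17. Whether the arrays fall into clusters was not tested.

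On treatment day 1, Ttr log2 signals in replicates 1, 2 and 3 were 10.45, 10.75 and 10.36 with saline, 8.57, 14.96 and 15.73 with methamphetamine, and 13.68, 12.22 and 13.07 with heroin. On day 3 they were 8.84, 15.73 and 10.06 with saline, 13.60, 8.56 and 15.09 with methamphetamine, and 10.63, 10.11 and 10.76 with heroin. The 3 heroin arrays were all above saline on day 1, whereas on day 3 a single saline array stood above them by over 4 log2 units. On day 6 the signals were 9.49, 8.82 and 14.02 with saline, 12.46, 11.66 and 10.39 with methamphetamine, and 10.86, 13.62 and 14.84 with heroin. On day 12 they were 11.17, 11.53 and 11.75 with saline, 11.62, 11.07 and 14.01 with methamphetamine, and 9.96, 15.52 and 10.22 with heroin. On both days the 3 agents overlapped, and in saline day 6 and heroin day 12 a single array stood far above the other 2.

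In withdrawal on day 13, the Ttr log2 signals were 14.74, 8.81 and 10.84 with saline, 10.01, 12.69 and 15.49 with methamphetamine, and 10.00, 9.51 and 15.68 with heroin. On day 15 they were 14.92, 15.16 and 15.19 with saline, 14.11, 14.95 and 11.66 with methamphetamine, and 11.44, 11.23 and 10.93 with heroin. Saline day 15 was the only group with all arrays above 14, and the heroin arrays of that day all lay below it. On day 18 the signals were 10.62, 10.77 and 10.34 with saline, 8.40, 12.30 and 9.96 with methamphetamine, and 13.72, 9.79 and 11.82 with heroin. On day 24 they were 9.97, 11.74 and 13.92 with saline, 13.87, 11.86 and 10.82 with methamphetamine, and 11.33, 9.85 and 11.16 with heroin. The 6 naive arrays were at 9.58, 11.05, 11.68, 15.60, 10.14 and 11.79. Only replicate 4 was high, and the others lay between 9.58 and 11.79.

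**Figure D1:**
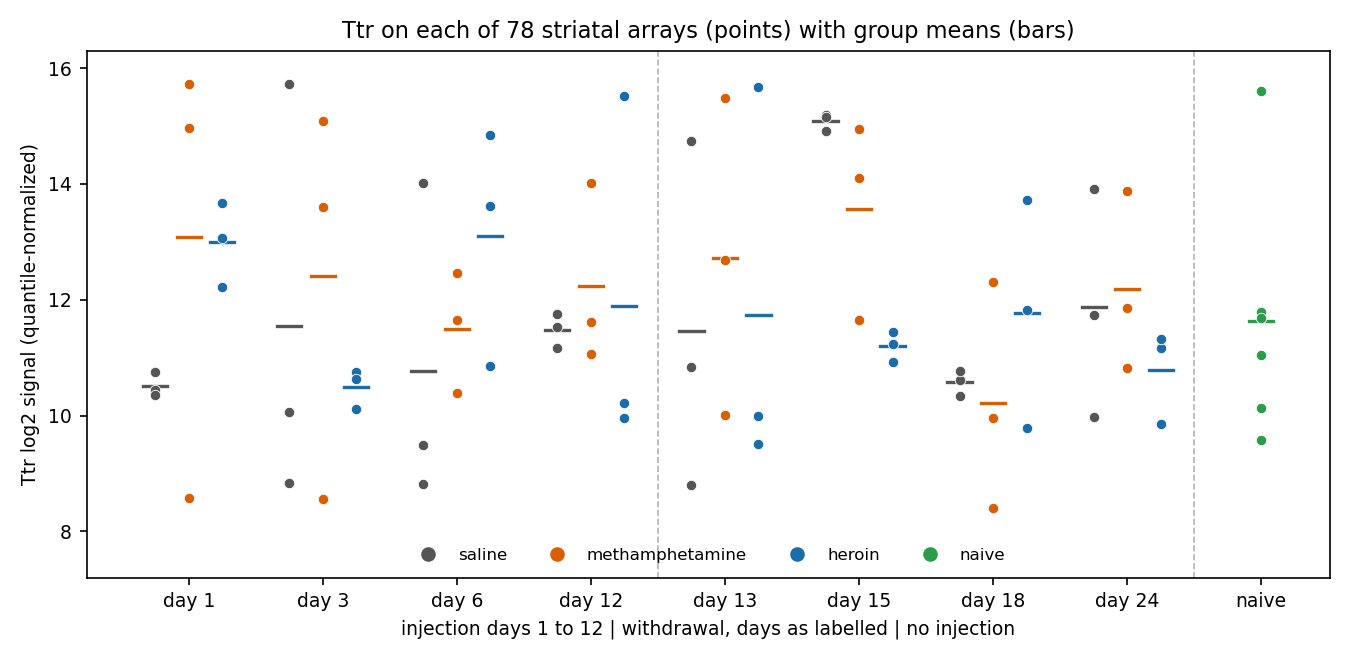
Ttr log2 signal (quantile-normalized, vertical axis) by day for saline, methamphetamine, heroin and naive arrays. Each point is 1 of 78 arrays and each bar a group mean. In 17 of 25 groups the arrays span more than 2 log2 units, while saline day 15 stands together between 14.92 and 15.19.

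High Ttr occurred with every agent and in naive tissue. Of 78 arrays, 17 were above 14, and these were 7 of 24 methamphetamine, 6 of 24 saline, 3 of 24 heroin and 1 of 6 naive arrays. They came from 13 of the 25 groups, and 10 of these groups had exactly 1 such array. The range within a group exceeded 1 log2 unit in 19 groups, 2 in 17 and 4 in 9. It was narrowest in saline day 15, at 0.27, and widest in methamphetamine day 1, at 7.16. Of the variation of Ttr between arrays, 26.9% lay between groups, against 30.7% for the median probe and 31.2% that 25 groups of these sizes take with no group effect. Each of the 13 slides of 6 arrays held a spread of its own: the lowest slide maximum was 14.01 and the highest slide minimum was 11.68.

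The other members varied over a narrower span. Kl ran from 7.02 to 9.97 (7.68-fold), Sostdc1 from 7.10 to 9.68 (5.99-fold) and Folr1 from 6.58 to 8.99 (5.29-fold). Aqp1 ran from 6.71 to 9.01 (4.91-fold) and Clic6 from 9.34 to 11.66 (4.97-fold). Their standard deviations within groups were 0.573, 0.544, 0.526, 0.558 and 0.346 log2 units, all above the 0.123 of the median probe. Between groups lay 40.8% of the variation of Kl, 34.8% of Sostdc1, 31.2% of Aqp1, 26.9% of Clic6 and 26.6% of Folr1, to be read against the same 31.2%. Folr1 was above its array's median probe on 34 of 78 arrays and Aqp1 on 62, so on the other arrays these probes were dim, and their lower values are close to a floor of the array. The levels of different genes are not set against each other, since each probe has its own brightness.

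**Figure D2:**
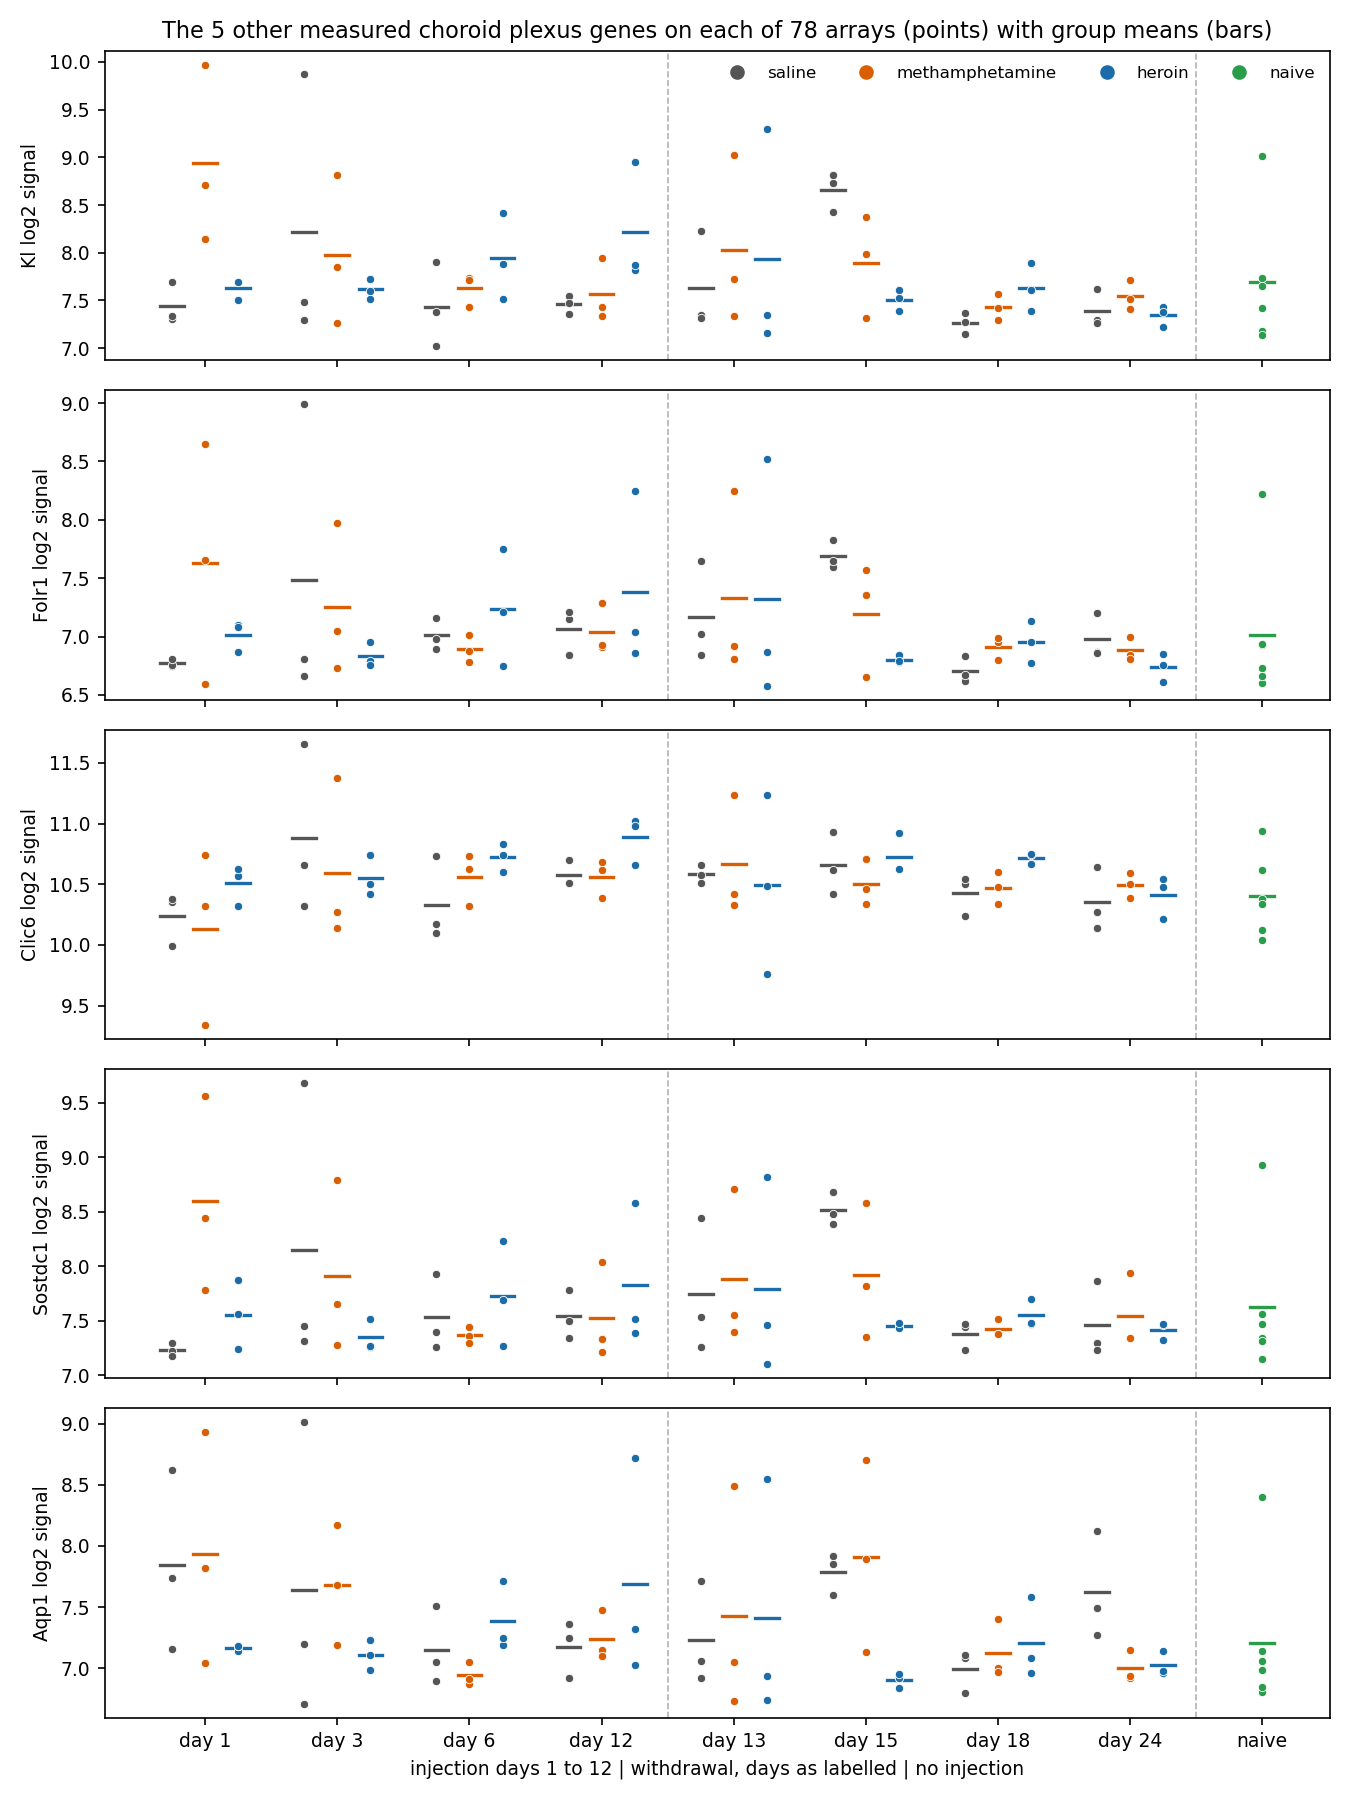
Log2 signal of Kl, Folr1, Clic6, Sostdc1 and Aqp1 by day for saline, methamphetamine, heroin and naive arrays. Each point is 1 of 78 arrays and each bar a group mean. Single high arrays recur in the same groups in all 5 panels, such as saline day 3, where Kl reached 9.87 and Folr1 8.99 on replicate 2.

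The members rose and fell together from array to array. With each gene expressed as its deviation from the group mean, Ttr correlated over the 78 arrays with Kl at r = 0.87, with Sostdc1 at 0.87, with Folr1 at 0.86, with Aqp1 at 0.80 and with Clic6 at 0.74. The 15 pairs had r between 0.67 and 0.95 (median 0.86) and Spearman's rho between 0.47 and 0.90. The points share library, slide and normalization, so these values describe the arrays and carry no test. Arrays were also split by the opening characters of their slide names. These sets are called chip lots here, which the labels do not say. Within the chip lot of 18 arrays r was 0.84 to 0.97, and within the lot of 60 arrays 0.63 to 0.95. Without the methamphetamine day 1 arrays it was 0.63 to 0.95, and without the 2 arrays farthest from the Ttr median 0.60 to 0.94. Of the 17 arrays where Ttr was above 14, 16 were among the 17 highest for Kl, for Folr1 and for Sostdc1, 14 for Aqp1 and 10 for Clic6.

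Saline day 3 replicate 2 shows the pattern on 1 array: Ttr was at 15.73, Kl at 9.87, Sostdc1 at 9.68, Aqp1 at 9.01, Folr1 at 8.99 and Clic6 at 11.66. The other 2 saline arrays of that day had Ttr at 8.84 and 10.06, Kl at 7.30 and 7.48, Sostdc1 at 7.45 and 7.31, and Folr1 at 6.66 and 6.81. The relation was bent, with the top values of Ttr near the upper end of the array's scale. Kl, Folr1, Sostdc1 and Aqp1 stayed near their lowest values over most of the range of Ttr and climbed steeply at its upper end. Heroin day 18 replicate 3, for example, had Ttr at 11.82 with Kl at 7.39 and Folr1 at 6.95, while heroin day 13 replicate 3 had Ttr at 15.68 with Kl at 9.30 and Folr1 at 8.52.

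Some arrays departed from this. Clic6 had a median of 10.53, and methamphetamine day 1 replicate 1 had its lowest value, 9.34. The leading Aqp1 probe was high without a matching Ttr on saline day 1 replicate 3 (Aqp1 8.62, Ttr 10.36) and saline day 24 replicate 2 (8.12 and 11.74). The other 2 Aqp1 probes, with medians of 6.97 and 6.78 over the series, reached at most 7.61 and 7.17 on saline day 1. On saline day 24 they reached at most 7.10 and 7.30. On methamphetamine day 15 replicate 1 Aqp1 reached 8.70 with Ttr at 14.11. Kl was at 8.14 on methamphetamine day 1 replicate 1, where Ttr was at 8.57 and Folr1 at 6.59, and this is 1 of the arrays with raised hippocampal markers. Whether these markers account for that value was not tested.

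**Figure D3:**
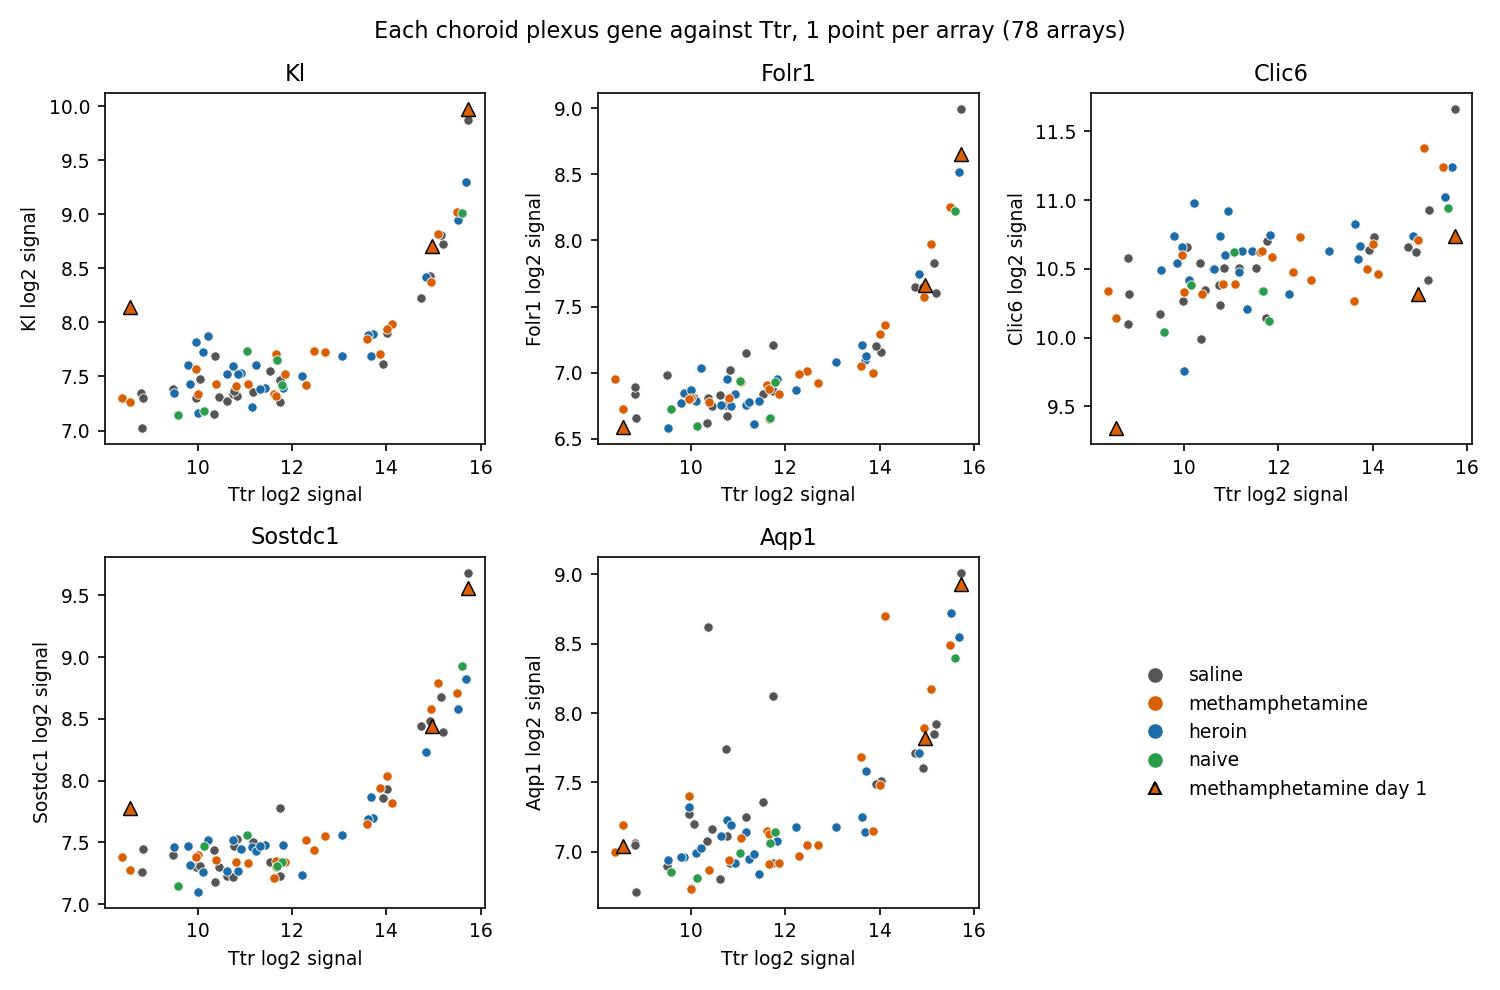
Log2 signal of Kl, Folr1, Clic6, Sostdc1 and Aqp1 (vertical axes) against Ttr (horizontal axes), 1 point for each of 78 arrays, with methamphetamine day 1 as triangles. The points rise steeply at the upper end of Ttr in all panels except Clic6, which is looser, and Aqp1 has 3 arrays off the curve.

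Second probes of 3 members were present. The second Folr1 probe followed the first (r = 0.94 of deviations), as did the other 2 Aqp1 probes (0.88 and 0.78). The second Kl probe did not (r = 0.23). It ran from 6.27 to 6.88 and lay below the array median on all 78 arrays, so only the first Kl probe measured the gene above the middle of the array.

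The genes most like Ttr across arrays were mostly further genes of this epithelium. The 10 with the highest r were Ecrg4 (0.89), Col8a1 (0.85), Wfdc2 (0.85), Steap1 (0.84), Kcne2 (0.84), Cldn2 (0.83), Rdh5 (0.81), F5 (0.80), Cox8b (0.78) and Defb11 (0.77). Kcne2 encodes a potassium channel subunit and Cldn2 a tight junction claudin that forms water- and sodium-permeable pores. Of the 10, 8 belong to the second choroid plexus list, and Wfdc2 and Defb11 do not. That list was chosen with earlier results of these data known, so this count is no independent support. Probes this like Ttr were rare: of all others, 70 (0.155%) had r above 0.5 with Ttr and 31 (0.0685%) above 0.7, while 8 had r below -0.5. The 3 genes nearest to each other member were drawn from a set of 7, with Ecrg4 first for Kl, Folr1 and Sostdc1 (r = 0.95 for each), Cldn2 first for Aqp1 (0.87) and Otx2 first for Clic6 (0.83).

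In the second choroid plexus list, 28 of 30 genes were measured and 21 of these had r above 0.5 with Ttr. They included the transcription factors Otx2 (0.72) and Msx1 (0.70), the anion exchanger gene Slc4a2 (0.60) and the keratin genes Krt18 (0.70) and Krt8 (0.59). The 7 below were Wfikkn2 (0.46), Trpv4 (0.49), Igf2 (0.49), Igfbp2 (0.48), Slc13a4 (0.37), Tmem72 (0.17) and Mfrp (0.07). Igf2, Igfbp2 and Slc13a4 are also made in the meninges. The mean of the list correlated with Ttr at r = 0.84 over 78 arrays. Since the list was chosen with earlier results of these data known, these values describe it and test nothing.

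Markers of neighbouring tissue moved less with Ttr. Of 9 measured ependymal genes, which mark the ciliated lining of the ventricle, 1 had r above 0.5 (Tekt1, 0.67), and Foxj1, the master regulator of motile cilia, had r = -0.02. The mean of the ependymal list had r = 0.48. No gene passed 0.5 among 10 of the meninges (list mean r = 0.18), 8 of the endothelium (-0.12), 9 of oligodendrocytes (-0.14), 7 of astrocytes (-0.06) or 4 of blood (0.01). The same held for 7 genes of medium spiny neurons (-0.22), 5 of cortical neurons (-0.12), 7 of the hippocampus (0.11) and 7 of the thalamus and habenula (0.19). The median signal of the array had r = 0.13 with Ttr, and the ratio of its 95th to its 5th percentile had r = -0.17.

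**Figure D4:**
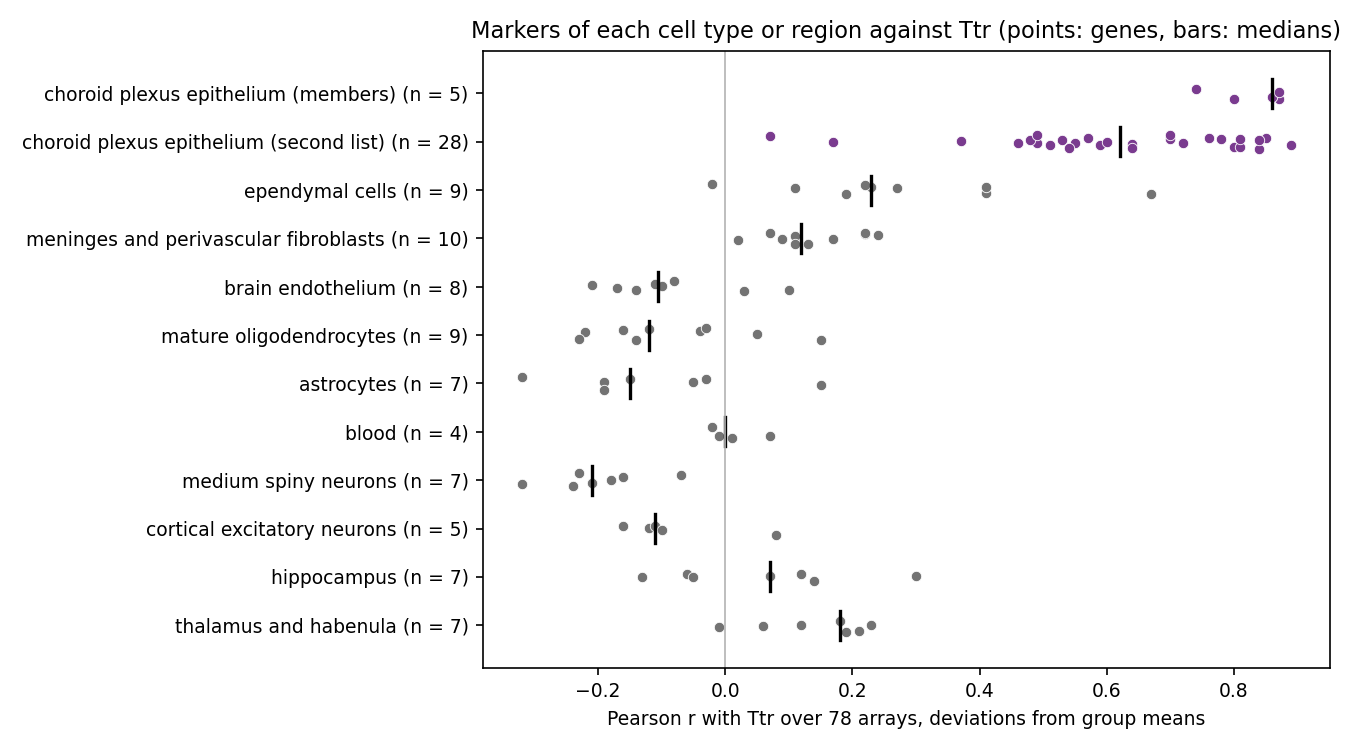
Pearson r with Ttr over 78 arrays, as deviations from group means (horizontal axis), for each measured gene of 12 marker lists. Points are genes and bars list medians. The choroid plexus lists have medians of 0.86 and 0.62, and the ependymal list follows at 0.23.

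In bulk tissue, fewer cells of a type and less RNA per cell cannot be told apart. How the tissue was dissected is not given in the sources used here, and its part in these differences was not tested.

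No member passed the test between the drugs and saline. A moderated F test (limma, adjusted over all probes) of any difference among the 25 groups passed for none of the 6 members, whose adjusted p ran from 0.296 for Kl to 0.804 for Folr1, with 0.771 for Ttr. It passed for 7.42% of all probes. For each phase, the mean drug effect over its 4 days was then tested. In treatment, 12 saline arrays had Ttr between 8.82 and 15.73 (median 10.60), 12 methamphetamine arrays between 8.56 and 15.73 (12.06) and 12 heroin arrays between 9.96 and 15.52 (11.54), so the 3 overlapped almost fully. Methamphetamine minus saline was 1.17 ± 0.801 log2 units (SE, 95% interval -0.44 to 2.77, adjusted p = 0.68), where 1.27% of all probes passed. Heroin minus saline was 0.84 ± 0.801 (-0.77 to 2.44, adjusted p = 0.857), where 0.389% passed, and methamphetamine minus heroin 0.33 (-1.28 to 1.93, adjusted p = 0.938), where 1.06% passed. Each drug was compared with the same saline arrays. The intervals of both drugs against saline span from a fall to a more than 4-fold rise, beside the standard deviation of 2.17 within groups. Without the methamphetamine day 1 arrays, with day 1 left out of the means of all agents, methamphetamine minus saline was 1.32, heroin minus saline 0.18 and methamphetamine minus heroin 1.14 for Ttr. Methamphetamine minus heroin was -0.32 without methamphetamine day 3 replicate 3.

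In withdrawal, 12 saline arrays had Ttr between 8.81 and 15.19 (median 11.29), 12 methamphetamine arrays between 8.40 and 15.49 (12.08) and 12 heroin arrays between 9.51 and 15.68 (11.20). Methamphetamine minus saline was -0.28 (95% interval -1.89 to 1.32, adjusted p = 0.996), where 0.011% of probes passed. Heroin minus saline was -1.10 (-2.70 to 0.51, adjusted p = 0.799), where 0.0199% passed, and methamphetamine minus heroin 0.82 (-0.79 to 2.42, adjusted p = 0.956), where 0.00221% passed. Without the 9 arrays of day 15, heroin minus saline was 0.19 and methamphetamine minus saline 1.01, so both changed sign. Methamphetamine minus saline also changed sign, to 0.24, without saline day 13 replicate 1. Of 92 alternatives, 4 had the opposite sign for methamphetamine minus saline and 1 for heroin minus saline. The change of the Ttr difference between the phases (treatment less withdrawal) was 1.45 for methamphetamine (-0.81 to 3.71, adjusted p = 0.828, 0.115% of probes passing) and 1.94 for heroin (-0.33 to 4.20, adjusted p = 0.744, 0.011% passing). An exact permutation test of array labels within days gave the same side of the threshold, with p = 0.218 for Ttr under methamphetamine in treatment and 0.304 under heroin in withdrawal.

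The other 5 members had smaller differences and narrower intervals. Kl showed the smallest p of the 36 member values, at 0.40 ± 0.223 for methamphetamine minus saline in treatment (95% interval -0.05 to 0.84, unadjusted p = 0.0798, adjusted p = 0.55). For that comparison Sostdc1 was at 0.24 (-0.19 to 0.67), Folr1 at 0.12 (-0.29 to 0.53), Aqp1 at 0.03 (-0.38 to 0.43) and Clic6 at -0.04 (-0.29 to 0.21). Without day 1, as above, Kl was at 0.20, Sostdc1 at -0.04, Folr1 at -0.05 and Aqp1 at 0.30, so the sign for Sostdc1 and Folr1 rested on that day. For heroin in treatment they lay between -0.15 (Aqp1) and 0.17 (Kl), and without day 1 Aqp1 was at 0.14. In withdrawal, heroin minus saline was -0.30 for Aqp1 (-0.71 to 0.10), -0.25 for Sostdc1 (-0.68 to 0.18), -0.20 for Folr1 (-0.61 to 0.21), -0.16 for Kl (-0.60 to 0.29) and 0.08 for Clic6 (-0.16 to 0.33). The median over the members was 0.18 for methamphetamine and 0.07 for heroin in treatment, and -0.06 and -0.23 in withdrawal, where the median of all probes was 0. In the second choroid plexus list, 0 of 28 genes passed in any of these 4 comparisons.

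**Figure D5:**
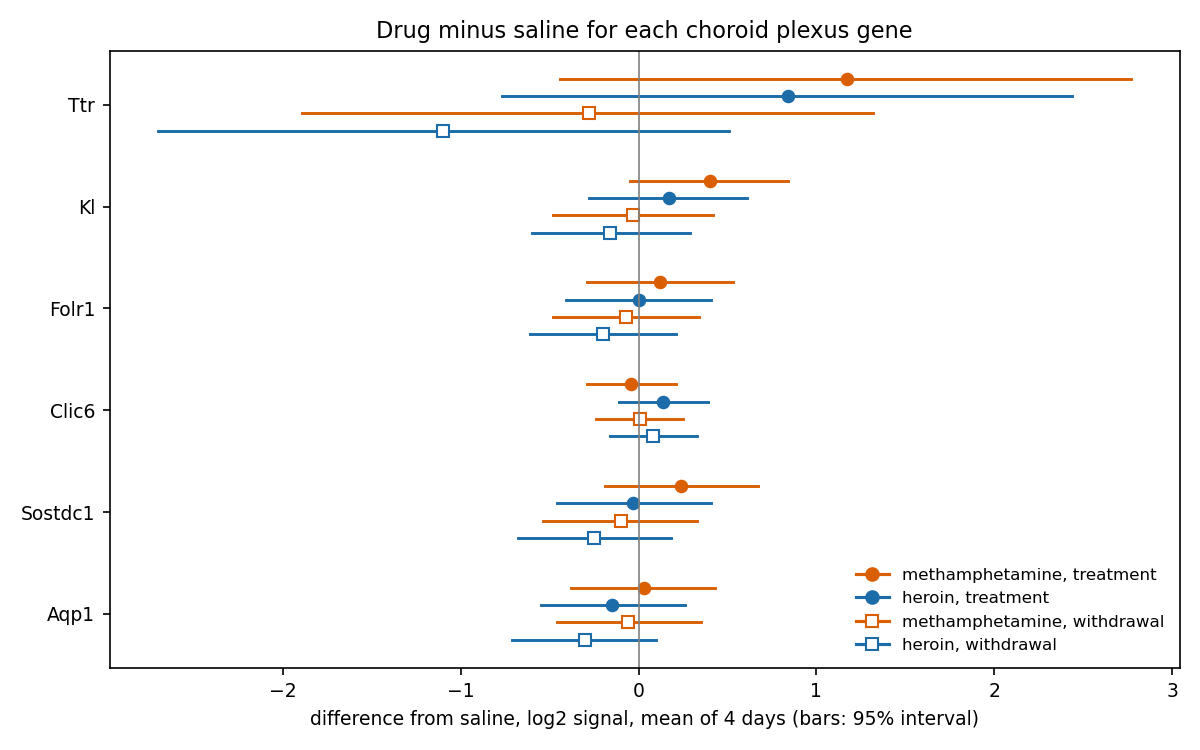
Difference from saline in log2 signal (horizontal axis, mean over the 4 days of a phase) for each member under methamphetamine and heroin, in treatment (filled circles) and withdrawal (open squares). Bars are 95% intervals of the limma model, and all 24 include 0. The intervals of Ttr are the widest, from -2.70 to 2.77.

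No member passed the test between saline and naive tissue. In treatment, saline minus naive was -0.81 for Ttr (95% interval -2.85 to 1.22, adjusted p = 0.962) and lay between -0.16 (Kl) and 0.10 (Aqp1) for the others, where 0.00442% of probes passed. Without naive replicate 4, the naive array at 15.60, the Ttr difference was 0.35.

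Single days gave larger differences on 3 arrays against 3. Over the 16 comparisons of a drug with the saline of its day, no member passed the adjusted threshold, against 0.172% of all probe tests. Of the 96 member values, 11 had an unadjusted p under 0.05, a larger share than the 5.45% of all probe tests. In 17 of the 96 (17.7%) the drug and saline arrays did not overlap, 7 higher and 10 lower with the drug, where 9.76% of all probes did not overlap. The members move together, so these 17 are not independent of each other, and neither are the 11.

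Of the 17, 5 fell on heroin day 15. Kl was at 7.39, 7.61 and 7.53 with heroin and at 8.43, 8.81 and 8.73 with saline. Folr1 was at 6.79, 6.78 and 6.84 with heroin and at 7.65, 7.83 and 7.60 with saline. Sostdc1 was at 7.48, 7.43 and 7.45 against 8.48, 8.68 and 8.39, and Aqp1 at 6.84, 6.95 and 6.92 against 7.60, 7.85 and 7.92. These 4 and Ttr were lower on every heroin array, while Clic6 overlapped (10.63 to 10.92 against 10.42 to 10.93). The second Folr1 probe (6.86 to 6.93 against 7.42 to 7.55) and 1 further Aqp1 probe (6.74 to 6.93 against 7.26 to 7.35) were also lower. The third Aqp1 probe (6.49 to 6.77 against 6.75 to 7.04) and the dim second Kl probe overlapped. On that day 12.2% of all probes did not overlap and 0.133% passed the adjusted threshold. In the fit the differences were -4.79 for Ttr (95% interval -8.71 to -0.87, adjusted p = 0.454), -1.41 for Kl (-2.50 to -0.32, adjusted p = 0.395), -1.25 for Aqp1, -1.21 for Sostdc1 and -1.02 for Folr1.

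The same saline arrays entered the methamphetamine comparison of day 15, in which Kl (7.99, 8.37 and 7.32) and Folr1 (7.36, 7.57 and 6.65) were below saline on all arrays, where 8.83% of all probes did not overlap. The second Folr1 probe overlapped there, at 6.74 to 7.59 against 7.42 to 7.55 with saline. Across the series, saline day 15 had the highest mean Ttr of the 25 groups, 15.09 ± 0.148 (SD, n = 3), ahead of methamphetamine day 15 at 13.57 ± 1.71 and heroin day 6 at 13.11 ± 2.04. Heroin day 15, at 11.20 ± 0.256, ranked 19, below the naive mean of 11.64 ± 2.12 (n = 6). The second choroid plexus list stood 0.21 to 0.42 above its median on the saline arrays and between -0.05 and 0.08 on the heroin arrays. On saline replicate 2, the array with low striatal markers, the cortical list was at 0.88. Without this array the same 5 members remained below saline under heroin. The ependymal list overlapped on that day, at -0.05 to 0.19 with saline and 0.00 to 0.07 with heroin, while the thalamic list was higher with heroin, at 0.29 to 1.15 against -0.15 to 0.14. The cortical list was lower with heroin, at -0.73 to -0.32 against 0.07 to 0.88. The part of these lists in the result was not tested.

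On day 1 of methamphetamine, Kl (8.14, 8.71 and 9.97) and Sostdc1 (7.78, 8.44 and 9.56) were above saline (Kl 7.31, 7.34 and 7.69, Sostdc1 7.30, 7.22 and 7.18) on all arrays, where 14.8% of all probes did not overlap. In the fit the differences were 1.09 for Kl (95% interval -0.10 to 2.28, adjusted p = 0.498) and 1.19 for Sostdc1 (0.03 to 2.34, adjusted p = 0.406), where 2.51% of probes passed. Ttr was at 1.02 (-3.27 to 5.31). Without the slide term Kl passed, at 1.49 with an adjusted p of 0.0388. In the second choroid plexus list 1 of 28 genes passed on that day, Slc29a4, a monoamine transporter gene also active in neurons, at 1.22 ± 0.251 (adjusted p = 0.00166). All 3 of these arrays carried raised hippocampal and lowered striatal markers, and the part of these in the differences was not tested.

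The remaining 8 values without overlap were Ttr and Folr1 higher on heroin day 1, Kl higher on heroin days 12 and 18, Clic6 higher on heroin day 18, Aqp1 lower on methamphetamine day 24, and Folr1 and Aqp1 lower on heroin day 24. The share of all probes without overlap was 7.94% on heroin day 1, 9.52% on heroin day 12, 9.82% on heroin day 18, 13.9% on methamphetamine day 24 and 7.84% on heroin day 24. None of these member values passed the adjusted threshold, and Ttr on heroin day 1 was at 3.26 with an interval of -0.92 to 7.44.

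The authors' deposited log2 table gives Ttr another span. In it Ttr holds both the lowest value of the table, 3.12 on heroin day 15 replicate 3, and the highest, 21.22 on methamphetamine day 1 replicate 2. The latter is above 16, the log2 limit of a 16-bit scanner. Within days the deposited Ttr rose by 2.10 log2 units for each unit of the quantile-normalized signal, with a residual SD of 0.0294, while the other members had slopes from 0.31 (Clic6) to 0.58 (Kl). Methamphetamine day 1 replicate 3 lay far off this Ttr line, at 15.73 by signal and 14.50 as deposited. The slope and its residual SD therefore do not describe that array. On day 15 the deposited Ttr was offset by -8.09 from the other days, so that saline day 15, the highest group by signal, reads 11.46 to 12.12 there. The deposited column of methamphetamine day 1 replicate 3 equals the mean of replicates 1 and 2 for all 45281 probes within 0.001. The deposited Ttr values thus differ from the signals in scale and by day, and the step that made them is not given in the sources used here. No member passed there either, in the phase comparisons, saline minus naive, methamphetamine day 1 or the F test.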

How the data were processed

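Striatal RNA of 78 samples was measured on Illumina arrays, 1 array a sample, on 13 slides of 6. The deposited signal table holds non-normalized intensity per probe, and the authors also deposited a table of log2 values. The scanner software, background correction and normalization behind them are not given in the sources used here. All columns were mapped to samples by their headers. The intensities were quantile-normalized and taken to log2 (R 4.3.3, limma 3.58.1). A linear model with 25 group means and the slide as a term was fitted to all 45281 probes, and p-values were adjusted by Benjamini-Hochberg over all of them, with a threshold of 0.05. Data were simulated for methamphetamine minus saline in treatment (45281 probes), with a change added to a small random subset of probes. Of those changed by 0.5 log2 units, 92% were recovered. This describes probes in general and not Ttr, whose standard deviation within groups was 2.17 against a median of 0.123. The simulated noise was independent between probes and had no slide differences, so the figure need not hold for the real arrays.

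The members and all marker lists were chosen with earlier results of these data known. Every probe of the members was described. The leading probe of a gene is the one with the highest mean. Named beside them are the 10 genes with the highest Pearson r with Ttr and the 3 with the highest r for each other member, over deviations from group means. Further genes of the second choroid plexus list were named after their values were seen. Alternatives covered background correction, normalization, the deposited values, a filter on dim probes, the slide term, the replicate block, chip lot, variance model, array weights and left-out arrays. The chip lot was inferred from the slide names. Leaving out the day 15 arrays, the averaged deposited column, and linear signals were added after seeing the data.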

Additional observations from a re-analysis of the deposited data

Results flagged for a closer look

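Among the 6 naive arrays, replicate 4 stood apart from the others for 5 members. It had log2 signals of 15.60 for Ttr, 9.01 for Kl, 8.22 for Folr1, 8.93 for Sostdc1 and 8.40 for Aqp1. Its gap to the next array took 0.633, 0.679, 0.79, 0.77 and 0.792 of the range of the group, where Dixon's critical value for 6 samples is 0.625. For Clic6 it took 0.356. Chance flags about 1 in 20 groups, and the 5 flags come from 1 array and from genes that move together.

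By their leading probes, several members lay on opposite sides of saline on different days, with all drug arrays on 1 side each time. Over the 16 single-day comparisons 9.76% of all probe tests did not overlap. The share of all probes with such opposite days was not computed, so the pairs cannot be called particular to the members. The differences between days were not tested, and values are differences of group means without the slide term. Ttr with heroin was 2.47 above saline on day 1 and at -3.89 on day 15. Kl with methamphetamine was 1.49 above on day 1 and at -0.76 on day 15. Kl with heroin was 0.75 above on day 12 and 0.37 above on day 18, and at -1.15 on day 15. Folr1 with heroin was 0.24 above on day 1, and at -0.89 on day 15 and -0.24 on day 24. The Folr1 log2 signals were 6.75 to 6.81 with saline on day 1 and 6.61 to 6.85 with heroin on day 24, below the array median of 6.95, where the probe is dim and differences of this size carry no firm direction. On days 1 and 24 the heroin and saline arrays overlapped for the second Folr1 probe. Both drugs share the saline arrays of day 15, and the methamphetamine arrays of day 1 had low striatal markers.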

How the results depend on the processing

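Alternatives were run for the 6 phase comparisons of 2 agents, saline minus naive, methamphetamine minus saline on day 1 and the F test, and not for the other single days or the change between phases. No member passed in these, under every alternative run but 1. For methamphetamine minus saline on day 1 without the slide term, 1 member passed, Kl, at 1.49 with an adjusted p of 0.0388. Leaving out each array in turn left the count of members passing at 0 in all 702 values. The size and sign of the Ttr differences moved. Methamphetamine minus saline in treatment (Ttr 1.17) ran from 0.464 without methamphetamine day 3 replicate 3 to 1.73 without saline day 3 replicate 2. On day 1 (Ttr 1.02) it ran from -0.593 without methamphetamine replicate 3 to 3.01 without replicate 1. Heroin minus saline in withdrawal (Ttr -1.10) ran from -1.68 without heroin day 13 replicate 3 to -0.533 without saline day 13 replicate 1, and was -2.28 in the deposited values. Over all probes, methamphetamine minus saline in treatment called 575, against 152 without the slide term, 156 on the 60 arrays of the larger lot, 57 in the deposited values, 998 with array weights and 35 without the methamphetamine day 1 arrays.

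With the replicate number as a block, 0 members passed in each comparison, 42 of 48 member differences kept their sign, and the largest move was 1.38, for Ttr in saline minus naive. Replicate numbers 4 to 6 occur only among naive arrays, so each of these arrays took a block term of its own. With the block, saline minus naive thus rested on naive replicates 1 to 3, without the array at 15.60. That move therefore does not measure the block alone. Same-numbered arrays showed little likeness on average, with a mean correlation of deviations of -0.011, and of 0.012 with slides removed as well. For other arrays the mean was 0.0055. Deviations within a group sum to 0, so that value is tied to the -0.011 and is no separate reference.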
